A study of Homo sapiens with 6 samples.

Results

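The aldo-keto reductases described here are 10 human genes chosen by symbol: AKR1A1, AKR1B1, AKR1B10, AKR1B15, AKR1C1, AKR1C2, AKR1C3, AKR1C4, AKR7A2 and AKR7A3. All 10 had a row among the 16779 genes listed for each library. RNA-seq was done on 3 libraries of A549 cells with the genotype RN7SK knockout (RN7SK-KO), set against 3 libraries of A549 cells with the genotype WT (control). A549 is an established line from a human lung adenocarcinoma, and RN7SK encodes 7SK, a small nuclear RNA that binds P-TEFb, the kinase of transcription elongation, and keeps it inactive. The labels give no other allele, agent or time for either group, and they do not say how the knockout was made, whether it is a clone, or whether the libraries of a group came from separate cultures. The p-values below therefore measure the spread between these libraries, which may be technical. In bulk RNA a change in the share of cells that hold a transcript and a change in transcript per cell cannot be told apart. Total counts were 16018260 to 18488790 in RN7SK-KO libraries and 18612303 to 19357144 in control libraries.

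Aldo-keto reductases are cytosolic enzymes, folded as a barrel, that use NADPH to turn aldehydes and ketones into alcohols. Their substrates include sugars, retinal, steroids, prostaglandins and the reactive aldehydes made when lipids are oxidised. In lung tumours AKR1B10 and the AKR1C genes are known as abundant transcripts and as targets of the oxidative stress regulator NRF2, which the adaptor protein KEAP1 marks for degradation.

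The labels could be checked only in part. RN7SK had 0 rows in the count tables, and the genotype could not be checked from the targeted gene. A549 is known to lack CDKN2A and CDKN2B, which encode inhibitors of the cell cycle. CDKN2A had 0, 1 and 2 counts in RN7SK-KO libraries and 963, 1005 and 923 in control libraries. CDKN2B had 0, 1 and 0 counts in RN7SK-KO libraries and 216, 241 and 238 in control libraries. The control libraries thus went against the line named in their labels, so each difference below is between libraries as they were labelled, RN7SK-KO against control. MTAP, the neighbour of CDKN2A, had 13.1 CPM (read counts scaled to library size) in RN7SK-KO and 45.3 CPM in control libraries. The summed level of 9 lung epithelial markers was 5947 to 6058 CPM in RN7SK-KO libraries and 3287 to 3502 CPM in control libraries. It was carried by the keratins KRT7, KRT8 and KRT18, while the surfactant gene SFTPB was at 0 in all 6 libraries and EPCAM had at most 12 counts. The 8 endothelial markers summed to 4.19 to 4.92 CPM in RN7SK-KO libraries and 162 to 175 CPM in control libraries. Of these, ESAM had 2.92 CPM in RN7SK-KO and 110.1 CPM in control libraries and ENG had 0.235 and 54.6 CPM. CDH5 had 4, 6 and 5 counts in RN7SK-KO and 29, 26 and 39 in control libraries, and ROBO4 had 1, 4 and 2 in RN7SK-KO and 28, 39 and 41 in control libraries. These 4 were the endothelial markers tested, and all 4 passed as lower. KDR went the other way, with 5, 8 and 19 counts in RN7SK-KO and 4, 1 and 0 in control libraries, and PECAM1, VWF and TEK had at most 5 counts in any library. The 6 fibroblast markers summed to 12.4 to 14.5 CPM in RN7SK-KO and 3.56 to 4.55 CPM in control libraries, and the 5 haematopoietic markers to 6.76 to 8.42 and 1.62 to 1.83 CPM. Nearly all of the fibroblast sum was COL1A1 (12.7 CPM in RN7SK-KO and 3.40 CPM in control libraries), and LUM went the other way, with 5, 2 and 0 counts in RN7SK-KO and 9, 7 and 6 in control libraries. Nearly all of the haematopoietic sum was CD14 (7.10 CPM in RN7SK-KO and 1.69 CPM in control libraries), with CD3E at 0 in all libraries. The part of cell identity in the differences below was not tested.

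The libraries labelled RN7SK-KO held more transcript of the AKR1B and AKR1C genes and less of AKR1A1 and AKR7A2. Together the 10 genes took 0.889% to 0.913% of all counts in RN7SK-KO libraries, against 0.345% to 0.350% in control libraries. The largest member change was that of AKR1B10, 9.74-fold, followed by AKR1C2 with 4.98-fold and AKR1C3 with 3.03-fold. All 10 members passed the filter on low counts. With edgeR's quasi-likelihood test and a Benjamini-Hochberg adjusted p under 0.05 as the threshold, 7 members were higher, 2 were lower and 1 did not pass. Over all 12929 tested genes 85% passed, 42% higher and 43% lower, so passing the test does not set a member apart. Of the 10 members, 5 passed and were at least 2-fold higher, where 19.5% of tested genes were, and 0 were at least 2-fold lower, where 14.1% were. The 5 are AKR1B10 and the AKR1C genes, which lie in a cluster and can share reads, so they are not independent. AKR1C4 had few counts, overlapping groups and a log2 fold change of 0.77 without RN7SK-KO replicate 1. It reached the minimum of the low-count filter in 3 RN7SK-KO libraries but in only 1 control library. The median log2 fold change was 0.90 over the members and -0.007 over all tested genes. The CPM of the groups did not overlap for 8 members, 6 higher and 2 lower, which was also the case for 85.6% of tested genes.

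**Figure D1:**
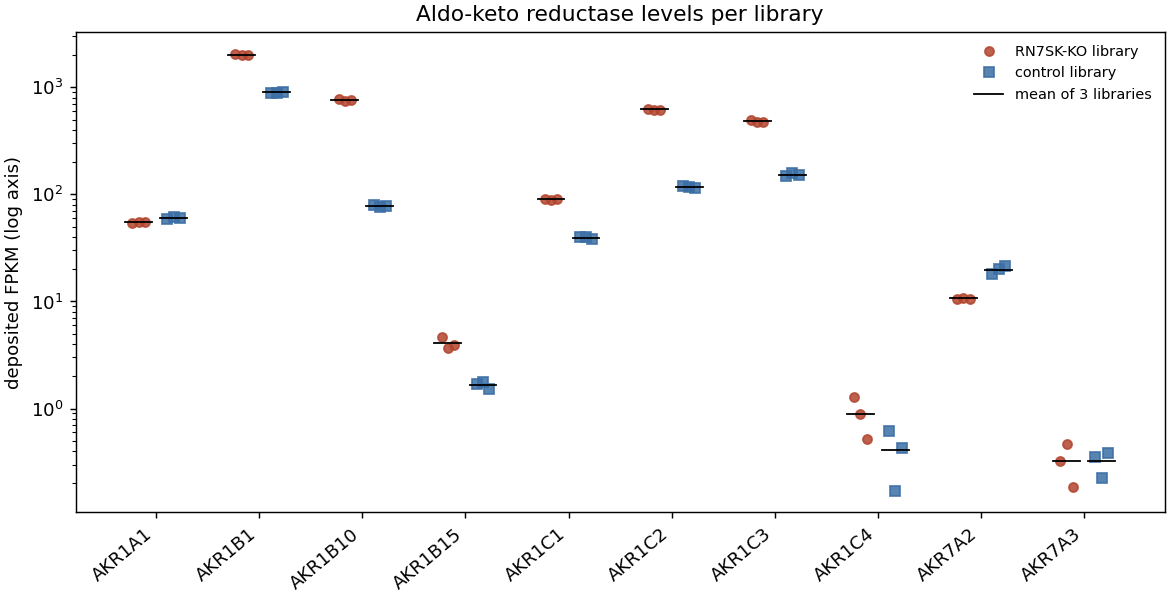
Deposited FPKM (fragments per length and depth, log axis) of each aldo-keto reductase, with a circle for each RN7SK-KO library, a square for each control library and a line at the mean of 3. The AKR1B1, AKR1B10, AKR1B15, AKR1C1, AKR1C2 and AKR1C3 circles lie above the squares, those of AKR1A1 and AKR7A2 lie below, and AKR1C4 and AKR7A3 overlap.

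The AKR1B genes lie side by side on chromosome 7. AKR1B1 (134442350 to 134459239, GRCh38) encodes aldose reductase, which turns glucose into sorbitol in the polyol pathway. AKR1B10 (134527567 to 134541412) encodes a reductase of retinal and of aliphatic aldehydes, and AKR1B15 (134549110 to 134579869) is its closest relative. Their coding sequences were aligned over the full length, with gap columns counted as differing. AKR1B10 and AKR1B15 were identical in 86.2% of 1035 aligned columns, and 84 of the 143 differing columns were gaps. AKR1B10 and AKR1B1 were identical in 76.3% of 957 columns, and 12 of the 227 differing columns were gaps. The ends of the coding sequences are given below, from GENCODE release 29 (GRCh38), each 43 bases to the stop codon, with letters that differ from AKR1B10 in capitals.
AKR1B10, chr7:134541047-134541089, plus strand: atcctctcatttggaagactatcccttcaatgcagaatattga
AKR1B15, chr7:134579507-134579549, plus strand: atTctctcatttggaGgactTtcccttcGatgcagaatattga
AKR1B1, chr7:134442728-134442770, minus strand: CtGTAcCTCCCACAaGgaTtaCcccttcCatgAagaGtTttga
AKR1B15 differed from AKR1B10 at 4 of these bases and AKR1B1 at 19. Of the windows of 50 bases in the AKR1B10 transcript, 11.6% were found letter for letter in AKR1B15, falling to 1.14% of windows of 100 bases and 0 of 150 bases, and none of any length was found in AKR1B1.

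AKR1B10 showed the largest difference. It had 2078, 2013 and 2025 CPM in RN7SK-KO libraries, against 212.8, 204.3 and 211.2 CPM in control libraries. The groups were far apart and the libraries of each lay close together. The log2 fold change was 3.28 ± 0.042 (fit ± SE; edgeR adjusted p = 1.36e-35), and 366 of the 12929 tested genes had a larger one. In FPKM the level was 766.2 ± 12.7 in RN7SK-KO and 77.9 ± 1.80 in control libraries (mean ± SD, n = 3 each), 9.84-fold, so both scales gave nearly the same size. The gene lengths behind the deposited FPKM, worked out from each gene's counts and FPKM, were 2641 bases in the RN7SK-KO and 2618 bases in the control tables.

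AKR1B1 was the most abundant member in every library, and the size of its change depended on the scale. It had 3069.9, 3009 and 3002 CPM in RN7SK-KO libraries, against 2146, 2183 and 2230 CPM in control libraries. That is 1.38-fold, with a log2 fold change of 0.47 ± 0.036 (edgeR adjusted p = 7.46e-14). In FPKM it had 2023 ± 22.1 in RN7SK-KO and 897.2 ± 14.4 in control libraries (n = 3 each), which is 2.25-fold. The recovered length of AKR1B1 was 1485 bases in the RN7SK-KO tables and 2373 bases in the control tables. With these lengths as an offset, the log2 fold change from counts was 1.15 (edgeR adjusted p = 1.75e-24). The part of the differing lengths in the count difference was not tested.

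AKR1B15 was expressed at a low level. It had 144, 103 and 105 counts in RN7SK-KO libraries and 79, 84 and 73 in control libraries. Scaled, these were 7.74, 6.15 and 6.46 CPM in RN7SK-KO, against 4.27, 4.40 and 3.81 CPM in control libraries, with no overlap. The log2 fold change was 0.71 ± 0.15 in counts (edgeR adjusted p = 6.12e-05) and 1.27 with the recovered lengths of 1645 bases in the RN7SK-KO and 2435 bases in the control tables as an offset (edgeR adjusted p = 1.99e-09). Reads that AKR1B15 shares with the far more abundant AKR1B10 may have been counted for either gene. AKR1B10 and AKR1B15 summed to a single row had a log2 fold change of 3.26.

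**Figure D2:**
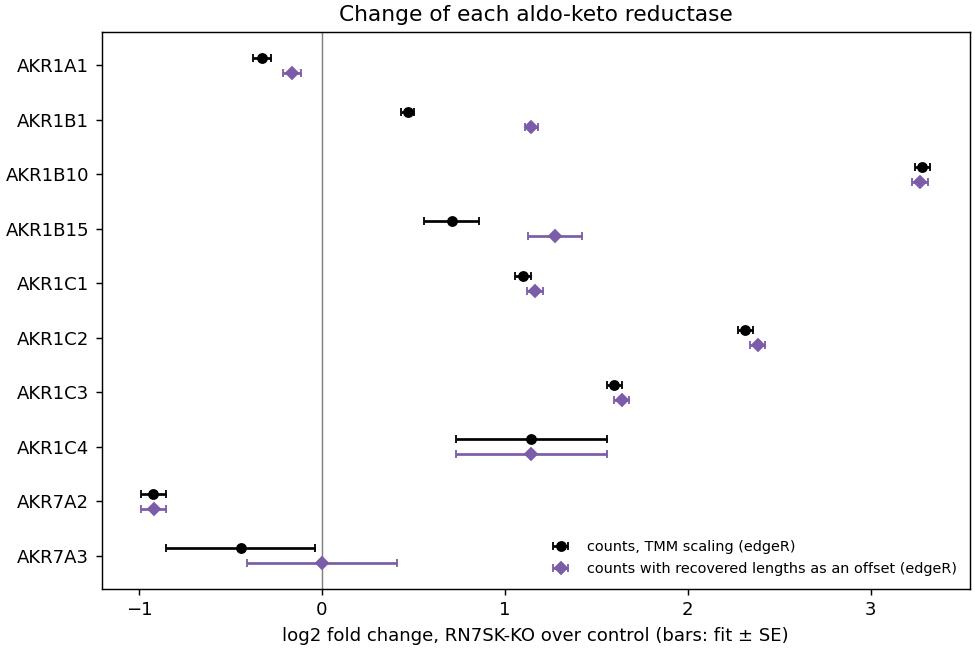
Log2 fold change of each aldo-keto reductase, RN7SK-KO over control, from edgeR (bars are fit ± SE), in counts (circles) and with the recovered gene lengths as an offset (diamonds). AKR1B10 (3.28) and AKR1C2 (2.32) lie far to the right on both scales, AKR1B1 moves from 0.47 to 1.15 with the offset, and the bars of AKR1C4 and AKR7A3 are wide.

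The AKR1C genes form a cluster on chromosome 10: AKR1C1 (4963415 to 4983283), AKR1C2 (4987775 to 5018000), AKR1C3 (5048781 to 5107686) and AKR1C4 (5196837 to 5218949). Their products reduce steroid hormones. AKR1C1 inactivates progesterone, AKR1C2 inactivates dihydrotestosterone and binds bile acids, AKR1C3 makes testosterone and prostaglandin F, and AKR1C4 is known chiefly from liver. The cluster is shown at sequence level because its members can take each other's reads. The first 84 coding bases of each gene, all within its first coding exon, are given from GENCODE release 29 (GRCh38), with letters that differ from AKR1C2 in capitals.
AKR1C2, chr10:5003752-5003835, minus strand: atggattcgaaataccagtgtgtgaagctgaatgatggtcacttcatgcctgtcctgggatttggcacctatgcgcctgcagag
AKR1C1, chr10:4963445-4963528, plus strand: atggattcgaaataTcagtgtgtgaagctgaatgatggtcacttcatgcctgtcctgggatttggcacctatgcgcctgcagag
AKR1C3, chr10:5094445-5094528, plus strand: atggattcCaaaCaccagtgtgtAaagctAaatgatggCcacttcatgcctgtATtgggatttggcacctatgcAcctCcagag
AKR1C4, chr10:5196868-5196951, plus strand: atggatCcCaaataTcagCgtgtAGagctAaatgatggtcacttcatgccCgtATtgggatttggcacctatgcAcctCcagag
In this stretch AKR1C1 differed from AKR1C2 at 1 base, AKR1C3 at 9 and AKR1C4 at 12. Over the whole coding sequence AKR1C1 and AKR1C2 were identical in 98.0% of 972 columns, AKR1C2 and AKR1C3 in 91.0%, and AKR1C2 and AKR1C4 in 88.0% of 973. Of the windows of 100 bases in the AKR1C2 transcript 32.9% were found letter for letter in another member, against 17.4% for AKR1C1, 4.98% for AKR1C3 and 0.456% for AKR1C4. In number the shared windows of AKR1C2 and AKR1C1 were close, 1202 of 3657 and 1152 of 6606. The AKR1C1 transcript used here was the longer, with 6705 bases against 3756 for AKR1C2. The values of AKR1C1 and AKR1C2 are therefore the least certain as a split, and those of AKR1C3 rest mostly on sequence of its own.

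**Figure D3:**
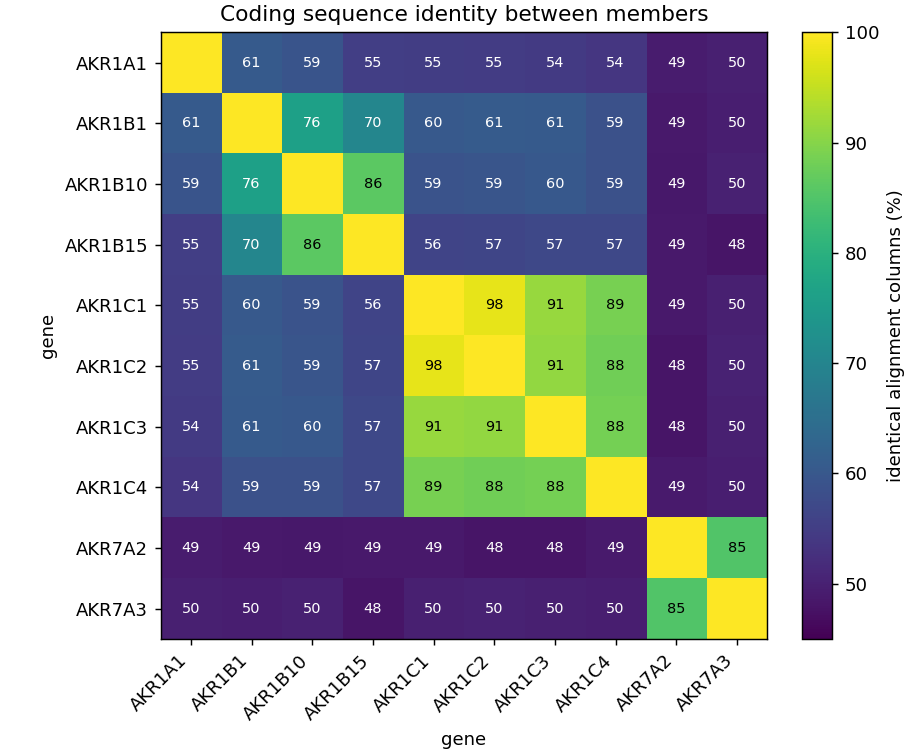
Share of identical columns (%) in pairwise alignments of the coding sequences of the 10 aldo-keto reductases, from dark (low) to light (high). Gap columns count as differing. The AKR1C genes form a block with AKR1C1 and AKR1C2 nearest to each other (98.0%), AKR1B10 pairs with AKR1B15 (86.2%) and AKR7A2 with AKR7A3 (85.1%).

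AKR1C2 had 2542, 2480 and 2455 CPM in RN7SK-KO libraries, against 510.9, 498.6 and 492.5 CPM in control libraries. The groups did not come near each other. Its log2 fold change was 2.32 ± 0.039 (edgeR adjusted p = 2.24e-32). AKR1C3 had 965.6, 931.0 and 916.9 CPM in RN7SK-KO libraries, against 298.6, 322.4 and 306.9 CPM in control libraries, with a log2 fold change of 1.60 ± 0.042 (edgeR adjusted p = 4.05e-27). AKR1C1 had 296.2, 290.6 and 293.9 CPM in RN7SK-KO libraries, against 138.9, 139.1 and 133.0 CPM in control libraries, with a log2 fold change of 1.10 ± 0.043 (edgeR adjusted p = 6.07e-22). All 3 genes were higher in each RN7SK-KO library than in any control library. The 4 AKR1C genes summed to a single row had 3725 ± 72.3 CPM in RN7SK-KO and 947.5 ± 13.8 CPM in control libraries (n = 3 each), 3.93-fold. This value does not depend on which of the 4 genes a read was assigned to. It could still depend on whether reads that match several genes were dropped or counted more than once, which is not known.

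AKR1C4 was near the limit of detection. It had 29, 18 and 10 counts in RN7SK-KO libraries and 14, 4 and 10 in control libraries, so the groups met. The log2 fold change was 1.15 ± 0.41 (edgeR adjusted p = 0.0111). The ratio of summed counts, scaled to library totals, was 2.28 with an exact 95% counting interval of 1.43 to 3.72, which covers counting error only. All 3 RN7SK-KO libraries but only 1 control library reached the minimum of the low-count filter, so the gene entered the test largely through the group where it was high. Its call was lost without RN7SK-KO replicate 1 (log2 fold change 0.77, edgeR adjusted p = 0.147) and without control replicate 2 (0.78, edgeR adjusted p = 0.0671), and over the 6 fits that each left out a library its adjusted p lay between 0.00277 and 0.147. The hepatocyte markers ALB, APOA1, TTR and TF summed to at most 0.299 CPM in RN7SK-KO and 0.105 CPM in control libraries.

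The split of counts within the AKR1C cluster also differed between the groups. AKR1C2 took 66.8%, 67.0% and 67.0% of the summed AKR1C counts in RN7SK-KO libraries, against 53.8%, 51.9% and 52.8% in control libraries. AKR1C3 took 25.4%, 25.1% and 25.0% in RN7SK-KO libraries and 31.5%, 33.6% and 32.9% in control libraries. AKR1C1 took 7.78%, 7.85% and 8.02% in RN7SK-KO libraries and 14.6%, 14.5% and 14.3% in control libraries. For each of these 3 genes the groups were apart, and the exact two-sided permutation p was 0.1, the smallest that 3 against 3 libraries allow. AKR1C4 took 0.0289% ± 0.012 in RN7SK-KO and 0.0525% ± 0.029 in control libraries (n = 3 each; exact permutation p = 0.3). In shares of summed FPKM the difference of AKR1C2 was 14.1 percentage points, as it was in counts. The order of the genes in control libraries was not the same, as AKR1C3 took 49.2% and AKR1C2 37.9% of summed FPKM there. In RN7SK-KO libraries AKR1C2 took 52.1% and AKR1C3 40.3% of summed FPKM.

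**Figure D4:**
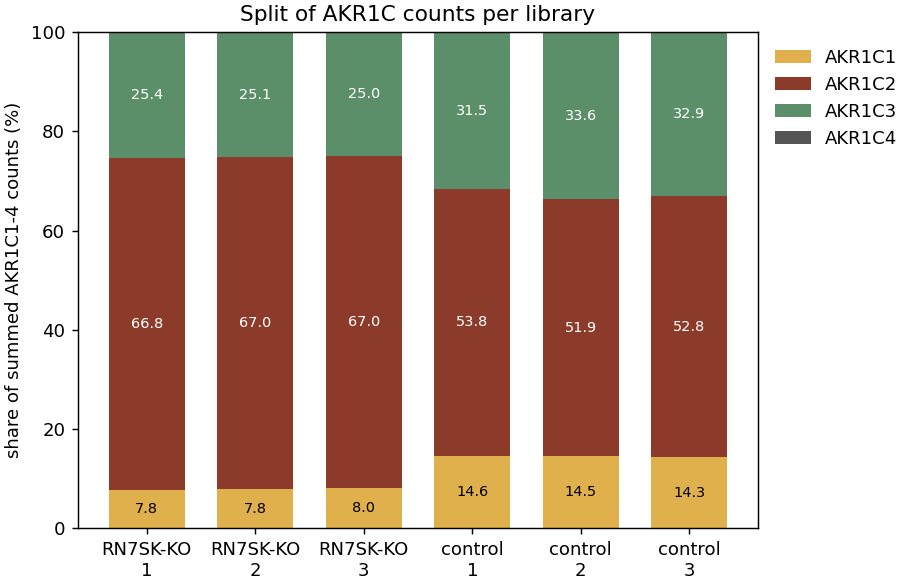
Share (%) of each AKR1C gene in the summed counts of AKR1C1 to AKR1C4, with a bar for each RN7SK-KO library and then for each control library. AKR1C2 takes 66.8% to 67.0% of the bar in RN7SK-KO and 51.9% to 53.8% in control libraries, and AKR1C4 is too small to see.

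The remaining members were lower or did not pass. AKR1A1 (chromosome 1, 45550826 to 45570049) encodes a broadly expressed aldehyde reductase. It had 86.9, 87.6 and 87.4 CPM in RN7SK-KO libraries, against 106.1, 112.9 and 109.7 CPM in control libraries, a log2 fold change of -0.33 ± 0.049 (edgeR adjusted p = 2.62e-07). With the recovered lengths of 1582 bases in the RN7SK-KO and 1774 bases in the control tables as an offset, it was -0.16 (edgeR adjusted p = 0.00298). The groups did not overlap, and in counts the change was the smallest of the 9 members that passed.

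AKR7A2 (chromosome 1, 19302708 to 19312146) encodes a reductase of succinic semialdehyde. It had 28.1, 28.7 and 27.7 CPM in RN7SK-KO libraries, against 48.4, 54.1 and 57.5 CPM in control libraries. Each RN7SK-KO library was below each control library, and the log2 fold change was -0.92 ± 0.068 (edgeR adjusted p = 1.85e-14). Its recovered lengths, 2617 bases in the RN7SK-KO and 2619 bases in the control tables, were nearly the same. AKR7A3 (chromosome 1, 19274229 to 19288770), whose product reduces the dialdehyde of the mould toxin aflatoxin, had 10, 13 and 5 counts in RN7SK-KO libraries and 15, 10 and 17 in control libraries. Its log2 fold change of -0.44 ± 0.41 did not pass (edgeR adjusted p = 0.307). The scaled ratio of summed counts was 0.746, with an exact 95% interval of 0.445 to 1.23 that covers counting error only and includes 1. AKR7A2 and AKR7A3 share 85.1% of coding columns, and 84 of the 161 differing columns are gaps. Of the windows of 50 bases in the AKR7A2 transcript, 5.33% occur in AKR7A3.

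Levels per length were compared within each group in deposited FPKM. In RN7SK-KO libraries the order was AKR1B1 (mean 2023 FPKM), AKR1B10 (766.2), AKR1C2 (623.7), AKR1C3 (483.0), AKR1C1 (90.3), AKR1A1 (54.8), AKR7A2 (10.7), AKR1B15 (4.09), AKR1C4 (0.900) and AKR7A3 (0.325). No neighbours in this order overlapped over the 3 libraries. In control libraries it was AKR1B1 (897.2), AKR1C3 (152.1), AKR1C2 (117.3), AKR1B10 (77.9), AKR1A1 (60.1), AKR1C1 (39.5), AKR7A2 (19.8), AKR1B15 (1.66), AKR1C4 (0.406) and AKR7A3 (0.321), and only the last pair overlapped. AKR1B1 led in both groups. AKR1B10 stood at position 2 of the members in RN7SK-KO and position 4 in control libraries, and AKR1C1 was above AKR1A1 in RN7SK-KO libraries and below it in control libraries. Among all 16779 listed genes AKR1B1 ranked 9 in RN7SK-KO and 51 in control libraries, AKR1B10 ranked 54 and 717, and AKR1C2 ranked 72 and 459. The ranks of AKR1B1 carry its differing recovered lengths, with which its FPKM was 2.25-fold higher against 1.38-fold in counts.

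Promoter sequence was set side by side for the near-identical genes AKR1C1 and AKR1C2, whose fold changes differed. Those fold changes depend on how shared reads were assigned, which is not known. The part of the promoters in them was not tested. RefSeq's table (GRCh38.p14) held promoters of 8 of the 10 members, with none for AKR1B10 and AKR1B15. The 250 bases before the annotated start of AKR1C2 and of AKR1C1 are given next, 5′ to 3′ on the gene's strand, with the letters that do not pair with an identical letter of the other in capitals.
AKR1C2, chr10:5003858-5004107, minus strand: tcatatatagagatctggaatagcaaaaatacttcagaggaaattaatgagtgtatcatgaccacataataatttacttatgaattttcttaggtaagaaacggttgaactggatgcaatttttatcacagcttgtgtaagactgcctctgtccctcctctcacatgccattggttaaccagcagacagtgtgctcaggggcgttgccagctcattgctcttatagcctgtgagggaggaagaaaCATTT
AKR1C1, chr10:4963165-4963414, plus strand: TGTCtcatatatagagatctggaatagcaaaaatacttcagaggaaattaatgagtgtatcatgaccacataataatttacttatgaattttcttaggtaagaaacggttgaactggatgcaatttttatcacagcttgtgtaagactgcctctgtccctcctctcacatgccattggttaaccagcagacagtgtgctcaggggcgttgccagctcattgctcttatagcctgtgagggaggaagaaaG
These promoters shared a run of 245 identical letters, while AKR1C2 and the upstream start of AKR1C3 were identical in 69.6% of aligned columns. AKR1C3 has a second listed start nearer its first coding bases, with its window at 5094164 to 5094413, which was not compared. The AKR1C2 window lies within the span of its gene, 4987775 to 5018000. The core of the antioxidant response element bound by NRF2, TGACNNNGC, was searched on both strands of the same 250 bases. It was present in 10.9% of 35116 promoters in the table. Of the 8 members with an entry 1 held it, AKR7A2, whose level was lower in RN7SK-KO libraries. G and C made up 78.8% of the AKR7A2 window, against a median of 58% over all promoters. The part of base composition in the matches was not tested. The 250 bases of AKR7A2 are printed with the 3 matches in capitals, none of which overlap.
AKR7A2, chr1:19312147-19312396, minus strand: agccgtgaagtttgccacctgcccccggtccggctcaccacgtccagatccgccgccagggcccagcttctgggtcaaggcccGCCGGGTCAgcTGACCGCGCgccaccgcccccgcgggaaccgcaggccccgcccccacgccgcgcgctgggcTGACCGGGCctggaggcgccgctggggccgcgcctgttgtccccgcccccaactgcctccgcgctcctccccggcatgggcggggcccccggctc
A missing match says only that these letters are not in this window.

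Genes that work beside the aldo-keto reductases were described from lists. Those of NADPH supply and the pentose phosphate pathway were mostly higher. Of 9 tested, 8 were higher, 0 lower and 1 did not pass, with a median log2 fold change of 1.33. PGD, an NADPH-making enzyme gene of the pentose phosphate pathway, had 1435 ± 27.6 CPM in RN7SK-KO and 355.0 ± 11.1 CPM in control libraries (n = 3 each). The transketolase gene TKT was 2.98-fold higher. NADK, which makes NADP from NAD, had a log2 fold change of -0.09 and did not pass (edgeR adjusted p = 0.0927, unadjusted p = 0.0808). IDH2, a mitochondrial source of NADPH, was higher in counts (1.20-fold) but not in FPKM, with 15.2 FPKM in RN7SK-KO and 18.2 FPKM in control libraries.

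Of 17 genes that control NRF2 or are its targets, 13 were higher and 4 lower, with a median of 1.11. The efflux pump gene ABCC2, the cystine transporter gene SLC7A11 and the glutathione synthesis gene GCLC had log2 fold changes of 2.62, 2.30 and 1.83. The quinone reductase gene NQO1 had 1405 ± 35.0 CPM in RN7SK-KO and 528.0 ± 22.8 CPM in control libraries (n = 3 each). NFE2L2, which encodes NRF2 itself, was lower (log2 fold change -0.22), as were the ubiquitin ligase scaffold gene CUL3 (-0.87), MAFF (-0.63) and HMOX1 (-0.81), while KEAP1 was higher (0.28). These lists were chosen with earlier results of the same libraries known, so their direction is not independent support.

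Other carbonyl reductases were mixed: of 16 tested, 10 were higher, 5 lower and 1 did not pass (median log2 fold change 0.95). The retinal reductase gene DHRS3 was 5.81-fold higher, RDH10, which oxidises retinol, 4.40-fold, and CBR1, a reductase of prostaglandins and quinones, 3.03-fold. RDH13, DCXR, DHRS7, DHRS11 and DHRS1 were lower. Of 11 genes of the polyol pathway and aldehyde clearance 6 were higher and 4 lower (median 0.74). The aldehyde dehydrogenases ALDH1A1, ALDH3A1 and ALDH3A2 were 4.08-fold, 3.18-fold and 3.49-fold higher. SORD, which turns the sorbitol made by AKR1B1 into fructose, had 30.5 ± 0.756 CPM in RN7SK-KO and 39.5 ± 2.29 CPM in control libraries, and GLO1, which clears methylglyoxal, had 108.0 ± 1.92 and 258.4 ± 6.81 CPM (n = 3 each). The FPKM of SORD were further apart, 6.28 in RN7SK-KO and 13.7 in control libraries. PARK7 and ADH5 were also lower, with log2 fold changes of -0.51 and -0.14, and ALDH7A1 did not pass. ALDH2, the mitochondrial acetaldehyde dehydrogenase gene, was higher in counts (160.5 CPM in RN7SK-KO and 45.2 CPM in control libraries) but not in FPKM (16.7 in RN7SK-KO and 21.4 in control libraries).

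Of 20 tested steroid and prostaglandin enzymes, 10 were higher, 6 lower and 4 did not pass (median 0.44). PTGES and PTGS2, which make the prostaglandins that AKR1C3 and CBR1 can reduce, were 6.22-fold and 4.20-fold higher, and the steroid sulfatase gene STS 7.65-fold. SRD5A1, which makes the dihydrotestosterone that AKR1C2 reduces, had 33.4 ± 1.44 CPM in RN7SK-KO and 69.1 ± 1.89 CPM in control libraries (n = 3 each). Its FPKM were further apart, 4.40 in RN7SK-KO and 23.8 in control libraries. The other lower genes were HSD17B10 (log2 fold change -0.77), PTGES3 (-0.67), HSD17B4 (-0.45), HSD17B14 (-0.26) and HSD17B12 (-0.15). HSD17B14 was not lower in FPKM, with 19.8 in RN7SK-KO and 19.7 in control libraries. Of 6 further genes of the superfamily, 5 had a row and 3 were tested. AKR1E2, a reductase beside the AKR1C cluster, was 4.25-fold higher and the potassium channel subunit gene KCNAB2 2.29-fold, while KCNAB3 was lower with a log2 fold change of -0.69. AKR1D1, a steroid reductase of liver, had at most 5 counts and KCNAB1 at most 3, and they were not tested.

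**Figure D5:**
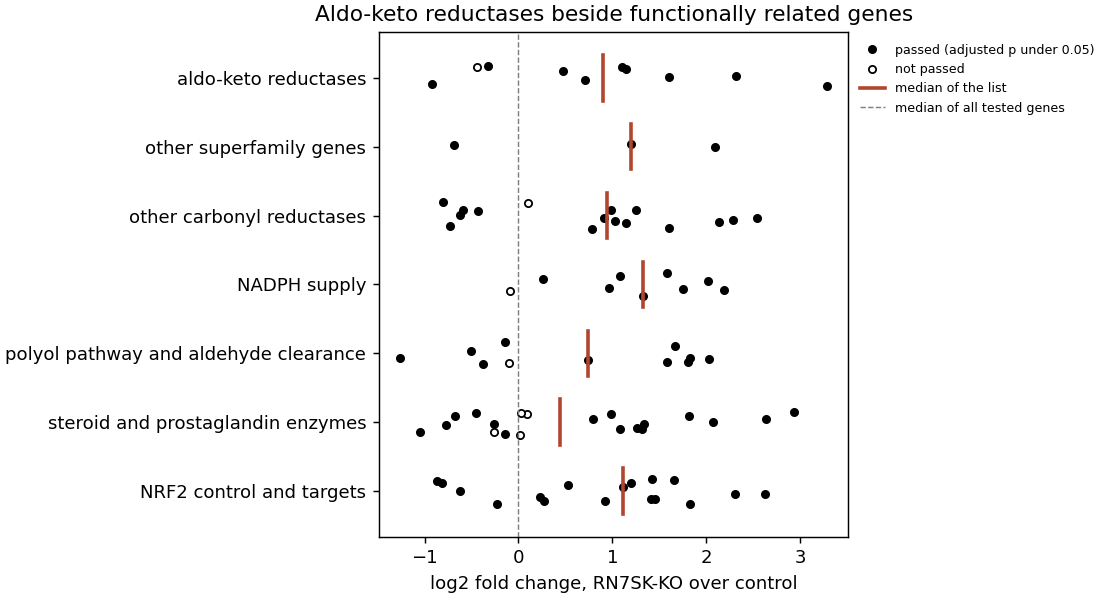
Log2 fold change, RN7SK-KO over control, of the aldo-keto reductases (top) and of tested genes on 6 lists, with filled circles for genes that passed edgeR's test, open circles for others and a bar at each median. The dashed line is the median of all tested genes (-0.007), and the list medians lie between 0.44 and 1.33.

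Genes next to the members on the chromosome were set beside them. Of the 10 nearest listed genes around the AKR1C cluster 8 were tested, 6 were higher and 1 lower, with a median log2 fold change of 0.42. KLF6 went the other way, with 69.3 CPM in RN7SK-KO and 290.0 CPM in control libraries. Around the AKR1B genes 5 of 9 tested were higher and 2 lower, with a median of 0.27. Around AKR7A2 and AKR7A3, 6 of 8 tested were lower and 1 higher (median -1.05), and around AKR1A1, 7 of 10 were lower and 0 higher (median -0.39). Over all tested genes 42% were higher and 43% lower, and whether these sets of 8 to 10 neighbours differ from that background was not tested.

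The profile over the 6 libraries most like that of AKR1B10, by Euclidean distance of centred log2(CPM + 1) among 10762 genes, was that of GPRIN2 (distance 0.079), followed by MTUS1 (0.11), FADS2 (0.13), REPS2 (0.19) and TRIB3 (0.19). These distances rest largely on the difference between the groups. FADS2, a fatty acid desaturase gene, had 1666 CPM in RN7SK-KO and 177.0 CPM in control libraries. The 5 genes most like AKR1B1 were FAM83G, SLC35B1, UBR7, GDE1 and NR1H2, with distances of 0.023 to 0.050. On log2(FPKM + 1), 2 of the 5 nearest to AKR1B10 and 0 of the 5 nearest to AKR1B1 were the same genes.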

How the data were processed

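Per the labels' protocols, TRIzol was used to extract total RNA, and an mRNA library kit followed. HISAT2 2.2.1.0, Trimmomatic 0.36, FastQC 0.11.5 and the build GRCh38 are named, without role or order, in the submitters' processing notes. For the counter, the annotation, strand and reads that match several genes, the method is not given in the sources used here. The authors deposited whole-number read counts per gene symbol and FPKM for each of the 6 libraries. Recovered gene lengths came out whole within 0.02 bases for over 99.9% of genes, and only 32.3% of 14582 genes had lengths within 1% between the groups' tables.

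Counts were compared in R 4.3.3 with edgeR 4.0.16 (filterByExpr, TMM factors 0.989 to 1.01, robust glmQLFit, glmQLFTest, two-sided). Benjamini-Hochberg adjustment ran over 12929 genes. SE is the log2 fold change divided by the root of its F statistic. CPM use the same factors. In simulated counts with the levels and spread of these libraries, 200 genes were changed and all others were not. Of genes changed by log2 fold changes of 0.5, 1 and 2, 79.8%, 90% and 100% were called, and 2.25% of calls were false (12762 genes tested). In the data 85% of tested genes passed, so these rates need not hold there. Libraries of a group differed by more than sampling noise in each pair (chi-square over degrees of freedom 1.74 to 8.30). Coding sequences were aligned with Biopython 1.88. No protein table was used here, so likeness was measured in coding bases. Members, lists and the rule for named genes (the 3 smallest p of each list, those that go against it, and the nearest profiles) were chosen with earlier results of these data known. Genes named outside that rule were chosen after their values were seen. Some genes of the lists are not reported here. Alternatives used DESeq2 1.42.0, and limma 3.58.1 on voom values and on log2 of deposited FPKM with 0.1 or 1 added.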

Additional observations from a re-analysis of the deposited data

How the results depend on the processing

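Over 20 alternatives, 189 of 200 member results kept their direction and their side of the threshold. The threshold of 0.01 and the test against a 2-fold change keep the main log2 fold changes, so direction could not change there. Among paralog sums, each summed row stands for every gene in it and is no separate test of that gene. The calls of AKR1B10, AKR1C1, AKR1C2 and AKR1C3 held in each alternative, with log2 fold changes of 3.26 to 3.37, 1.07 to 1.19, 2.30 to 2.41 and 1.57 to 1.69 (paralog sums apart). AKR7A3 changed sign with the recovered lengths as an offset (0.00082, edgeR adjusted p = 0.999) and in limma on log2(FPKM + 1) (0.0014, adjusted p = 0.987), where its lengths of 1648 bases in RN7SK-KO and 2250 bases in control tables enter. AKR1C4 did not pass at an adjusted p of 0.01. A test against a 2-fold change (glmTreat) called 3558 genes, 2105 higher and 1453 lower, and 4 members, 4 higher and 0 lower, because it asks for a larger change. Under it AKR1A1, AKR1B1, AKR1B15, AKR1C4 and AKR7A2 did not pass. Leaving out each library gave 10697 to 11132 calls in all, 5266 to 5534 higher and 5420 to 5598 lower, and 8 to 9 members, 6 to 7 higher and 2 lower.

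With each library left out, the differences in AKR1C share, RN7SK-KO minus control, were -6.68 to -6.49 percentage points for AKR1C1, 13.6 to 14.6 for AKR1C2, -8.06 to -7.0 for AKR1C3 and -0.0389 to -0.00998 for AKR1C4. In summed FPKM they were -5.22 for AKR1C1, -8.85 for AKR1C3 and -0.0569 for AKR1C4, as lengths enter there. With the replicate block 10910 genes and 9 members were called, and it changed no member's call. Deviations of same-numbered libraries correlated at 0.018, -0.0248 and -0.00775, so no effect shared by same-numbered libraries was seen. Whether such libraries were prepared as pairs is not stated in the labels. Counts limit AKR1C4 and AKR7A3, with 57 and 28 in RN7SK-KO and 28 and 42 in control libraries.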
